A study of Mus musculus with 14 samples.

Results

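The genes whose RNA differed between cells carrying the K314/315R mutant of p65 and cells carrying no p65 are described here. The comparison rests on 5 of the 14 arrays of the series, 2 of K314/315R cells and 3 of cells with the empty vector pTV, chosen by their labels alone. All were *p65*(-/-) mouse embryonic fibroblasts (MEFs, NIH 3T3) that had been infected with a lentivirus carrying a myc-tagged p65 or the empty vector, selected and kept as pools of stably expressing cells. In K314/315R the lysines at the positions in its name are replaced by arginine, so that they can no longer be acetylated. Both groups were starved overnight and given 30 ng/ml TNFα for 3 h. The remaining arrays, used where a result called for them, were of wild type p65 at 3 h and at 0 h and of KTR, a mutant with a further lysine replaced, at 3 h, with 3 arrays each. No 0 h array of K314/315R or pTV was analysed here, so the response of those cells to TNFα itself could not be read, and the comparison is one of cell pools after TNFα.

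p65 (RelA) is the transcription-activating subunit of the commonest NF-κB dimer. In resting cells it is held in the cytoplasm by IκB proteins, and TNFα sets off the kinase cascade that destroys IκB and lets p65 enter the nucleus. There it binds κB sites and switches on chemokines, adhesion molecules, survival factors and its own inhibitors, IκBα and A20 among them. In fibroblasts it also feeds, directly and through secreted interferons, the genes of the antiviral and acute phase responses.

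All values below are log2 probe signals relative to the 75th percentile of the same array, so that 0 is the level of a fairly bright probe and 1 unit is a doubling. They compare 1 probe between arrays and never 1 gene with another. Of 41174 probes, 22172 (53.8%), with 14880 gene names, were tested because some group had them clearly above background throughout, and 22168 of these gave a p for K314/315R over pTV. The 75th percentile lay between 967 and 1442 signal units and 49.9% to 57.7% of spots were above background on the 14 arrays. Over the tested probes the K314/315R arrays correlated at 0.991 with each other, and at 0.959 to 0.965 with the pTV arrays, which correlated among themselves at 0.985 to 0.994. The 2 K314/315R arrays were alone on a slide of their own and were read with another release of the scanner software (9.1.3.1, against 9.1.1.1), so slide and cell pool cannot be told apart. The 10 spike-in controls, RNAs added in known amounts, had a median of 0.91 and 1.35 on the K314/315R arrays and of −0.60 to 0.18 on the other arrays, and the part of this in the results was not tested. Of 11 fibroblast markers 10 were tested, among them the collagen gene *Col1a1* at 6.93 to 7.16 and the growth factor receptor *Pdgfra* at 1.58 and 1.75 with K314/315R and −0.44, −0.70 and −0.65 with pTV, and none of 6 endothelial markers, 3 of 8 macrophage markers and 4 of 7 epithelial markers were bright enough to be tested. Because the RNA came from whole cultures, fewer cells of a kind and less RNA per cell cannot be told apart.

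K314/315R cells had far more RNA than pTV cells from a limited set of strongly differing genes, and less RNA from a somewhat larger set with smaller folds. With a fold of over 2 and an adjusted p under 0.05 (limma, Benjamini-Hochberg adjustment over all tested probes), 926 probes with 752 gene names were higher in K314/315R cells, 4.18% of the probes tested, and 1038 probes with 957 names were lower, 4.68%. The groups did not overlap for 924 of the higher and 1036 of the lower probes, against 49.7% of all tested probes. The folds were unequal. Of the probes that were higher, 594 differed by 2- to 4-fold, 184 by 4- to 8-fold, 67 by 8- to 16-fold, 46 by 16- to 32-fold and 35 by more. Of the probes that were lower, 946 differed by 2- to 4-fold, 82 by 4- to 8-fold and 10 by 8- to 16-fold, but 217 of them were above background on neither K314/315R array, so their folds are only lower limits. On pTV arrays 600 of the 926 higher probes were above background on every array and 207 on none, so for those the fold has only a lower limit.

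The probes that were lower in K314/315R cells were mostly dim. Their median level was −3.58 with K314/315R, −2.26 with pTV and −2.84 with wild type p65, while the higher probes stood at −0.71, −2.78 and −0.73. Among 5019 probes with a mean above 2 over the 14 arrays, 0.737% were lower and 3.07% higher, whereas among 1704 probes with a mean below −4 the shares were 14.4% and 8.33%. Of the 1038 lower probes, 691 were above background on both K314/315R arrays. The balance of calls moved with the processing. 47.1% of all calls were higher as given here, against 59.6% after quantile normalization and 74.8% after another background correction (normexp), which called 333 probes higher and 112 lower.

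**Figure D1:**
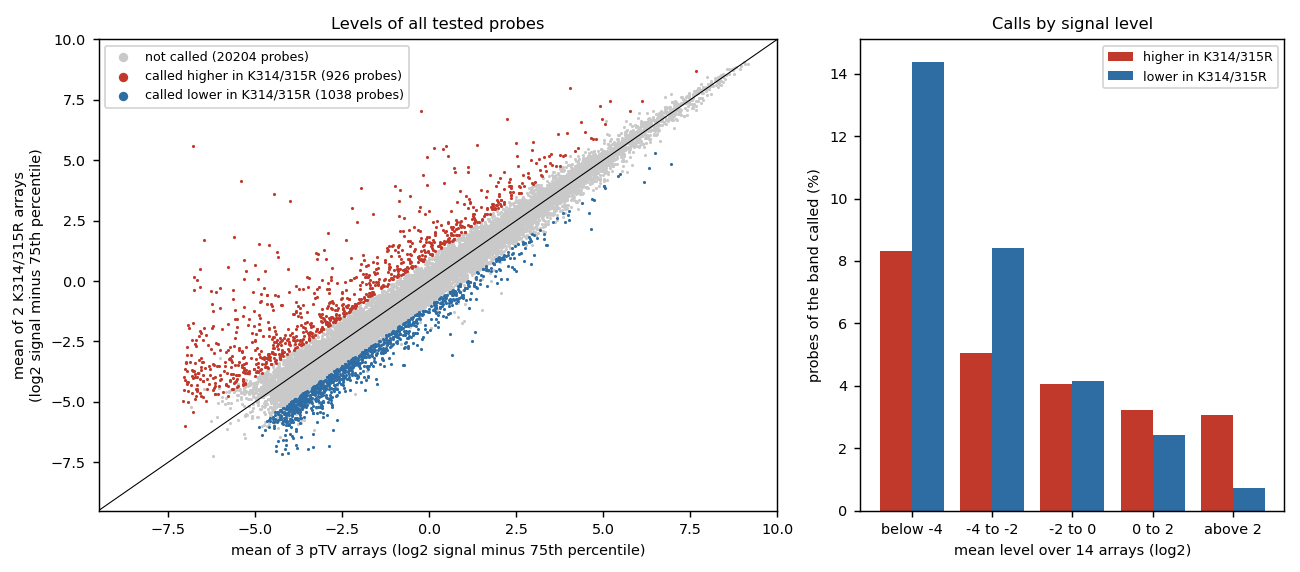
Mean level of each tested probe on the 2 K314/315R arrays against the 3 pTV arrays (left, log2 signal minus the array's 75th percentile, diagonal: equal levels) and the share of probes called in bands of mean level over 14 arrays (right, percent of the band). The 926 higher probes reach far from the diagonal, and the 1038 lower probes lie close to it, with their share falling from 14.4% below −4 to 0.737% above 2.

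The genes the study singled out were among those that K314/315R cells had more of. The study chose *Mmp10*, *Mmp13*, *Cfb* and *Mpa2l* with results from these arrays, among genes over 2-fold higher in wild type than pTV cells. Their low pTV values were therefore partly set by that choice and are no independent test. *Cxcl10*, a chemokine that draws T cells, stood at 4.15 and 3.79 on the K314/315R arrays and at 0.00, −0.31 and 0.14 on the pTV arrays. The groups lay far apart, with a log2 fold change of 4.03 (SE 0.20, adjusted p = 6.44e-07). The matrix metalloproteinase *Mmp10*, which cuts extracellular matrix, had −0.73 and −0.21 against −3.84, −4.64 and −3.56, a log2 fold change of 3.54 (SE 0.30, adjusted p = 8.87e-06), with 2 of the pTV arrays above background, and after the normexp correction it no longer passed (1.91, adjusted p = 0.0642). The collagenase *Mmp13* had 0.29 and 0.72 against −6.82, −5.83 and −7.14. No pTV array was above background for it, so its fold is a lower limit. Such limits were taken against the lowest signal that counted as above background on each pTV array, and K314/315R cells had at least 38.5-fold more *Mmp13* signal (adjusted p = 6.15e-08). In the same way *Cfb*, complement factor B, was at least 22.6-fold higher (−0.38 and −0.15 against −6.62, −6.37 and −6.76) and the interferon-inducible GTPase *Mpa2l*, now called *Gbp6*, at least 27.8-fold (0.24 and −0.17 against −6.63, −6.42 and −6.94). Every one of these genes was lower in all 3 pTV replicates than in both K314/315R replicates.

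*Rela*, the gene of p65 itself, had 1.54 and 1.87 against 1.00, 1.19 and 1.34 on its brighter probe, a log2 fold change of 0.53 (SE 0.19, adjusted p = 0.0590) that did not pass the test. Its dimmer probe had −2.06 and −1.51 against −2.84, −2.53 and −2.31, with 0.78 (SE 0.18, adjusted p = 0.00720), below the fold asked for, and 1.05 (adjusted p = 0.00356) without K314/315R replicate 1. The part of the RNA that these probes read in the knockout and in the transgene is not known here, so they are no check of the labels.

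**Figure D2:**
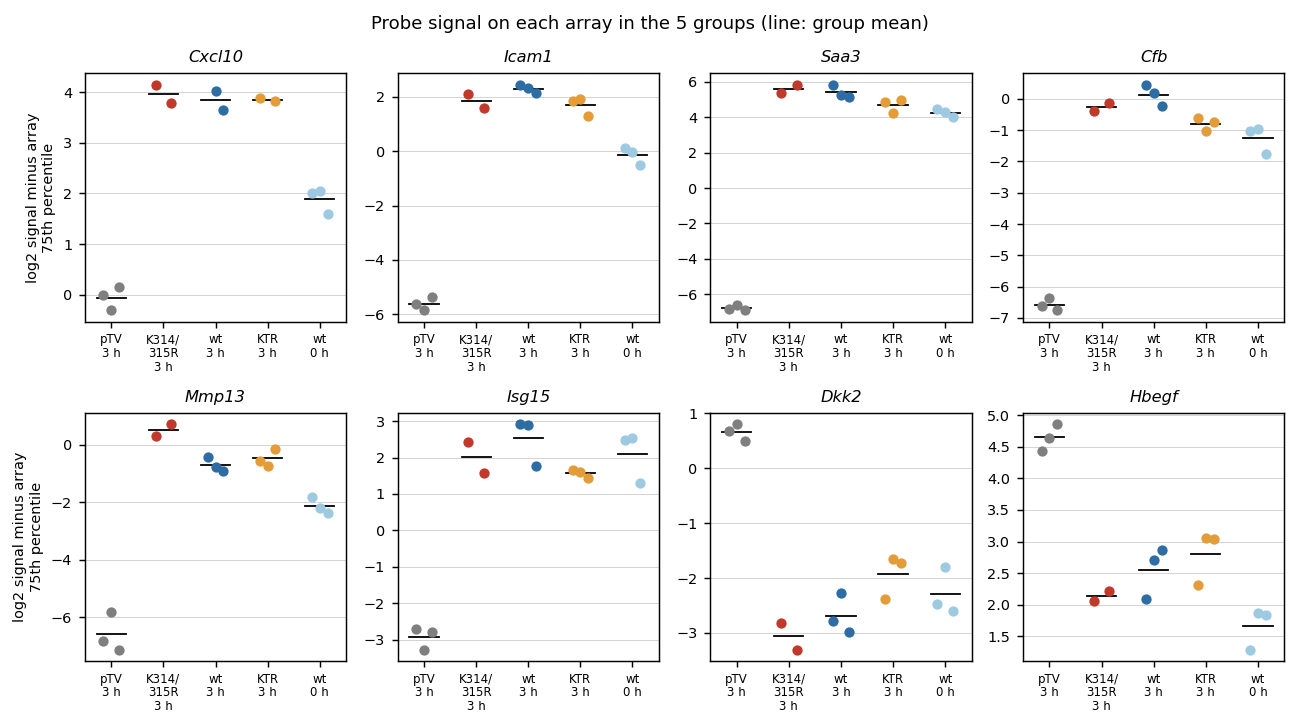
Signal of 8 probes on each array of the 5 groups (log2 signal minus the array's 75th percentile, points: arrays, lines: group means). The 2 K314/315R arrays lie far above the 3 pTV arrays for *Cxcl10*, *Icam1*, *Saa3*, *Cfb*, *Mmp13* and *Isg15* and far below them for *Dkk2* and *Hbegf*, and 1 wild type and 1 KTR array have no *Cxcl10* value, since the scanner software marked those spots as outliers.

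NF-κB's own regulators formed the first group. Of 18 listed subunits, kinases and inhibitors, 17 were tested, 9 were higher with K314/315R and none lower. The media log2 fold change of the tested members was 1.05, against −0.01 over all tested probes. *Rel*, a further subunit, was too dim to be tested, and with it counted the median of the 18 was 0.94, against −0.14 over all probes on the array. The strongest was *Tnfaip3*, which codes for the ubiquitin-editing inhibitor A20, at 4.61 and 4.41 against 0.92, 0.55 and 0.80. Its log2 fold change was 3.75 (SE 0.16, adjusted p = 2.38e-08). *Tnip1*, a partner of A20, followed at 5.06 and 5.27 against 2.37, 2.53 and 2.70, with 2.63 (SE 0.11). The IκB proteins, which return p65 to the cytoplasm, were all higher, *Nfkbia* (IκBα) by 1.27, *Nfkbib* by 1.11 and *Nfkbie* by 1.82. Of the subunits, *Relb* (1.36) and *Nfkb2* (1.05) of the alternative pathway passed, as did the nuclear IκB protein *Bcl3* (1.55), while *Nfkb1* had 0.77 and stayed under the fold of 2. Of the kinases, *Ikbke* passed, with 1.69, and *Chuk*, *Ikbkb* and *Ikbkg*, the units of the IκB kinase complex, had 0.05, 0.02 and 0.10. After normexp 6 members were called.

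Chemokines and cytokines were mostly higher with the mutant. Of 28 listed, 27 were on the array and 20 were tested, of which 15 were higher, 1 lower and 4 not called, with a median of 2.84. *Ccl11*, *Cxcl2*, *Cxcl9*, *Cxcl14*, *Il1a*, *Il1b* and *Tnf* were too dim to be tested, *Lif* had no probe by that name, and the median of all 27 on the array was 2.07. *Ccl20*, which attracts cells bearing CCR6, had 1.96 and 1.46 against −6.62, −6.40 and −6.37, at least 88.5-fold more (adjusted p = 4.23e-10). *Ccl8* (at least 19.4-fold), *Cxcl11* (at least 14.2-fold) and *Csf3*, the granulocyte growth factor G-CSF (at least 8.99-fold), were also above background on no pTV array. After normexp 12 of the list were higher and 1 lower, with a median of 1.94, and *Cxcl11* lost its call (1.945, adjusted p = 0.136). The neutrophil chemoattractant *Cxcl5* had 5.74 and 5.55 against 1.85, 1.19 and 1.09, a log2 fold change of 4.26. *Ccl5* differed by 3.94, *Il6*, which drives the acute phase response, by 3.33, *Cxcl16* by 3.22, the interleukin 1 antagonist *Il1rn* by 2.87 and *Il15* by 2.81 on 1 of its 2 probes. The monocyte chemokine *Ccl2* was bright in both groups and had a saturated spot, with 8.74 and 8.68 against 8.12, 7.49 and 7.41, and differed by 1.04 (SE 0.21). *Cxcl1* (1.53, SE 0.54, adjusted p = 0.0571), *Cx3cl1* (0.86), *Csf2* (0.97) and *Cxcl12* (0.04) were not called. *Il11*, an interleukin 6 family cytokine, went the other way, with −1.08 and −1.12 against 1.42, 0.69 and 1.28, and was lower by a log2 fold change of −2.23 (SE 0.22, adjusted p = 2.64e-05).

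The promoters of 3 genes of these groups are shown because they hold the letters of the κB consensus in the stretch just before the gene's start. Each sequence is the 250 bases before the start in RefSeq (GRCm38.p6), written 5′ to 3′ on the gene's strand, and capitals mark matches on either strand to the κB consensus or to the interferon-stimulated response element (GAAA, any 2 bases, GAAA). Positions are counted back from the start, −1 being the base just before it. *Cxcl10* (chr5:92348890-92349139, minus strand) holds κB matches starting at −159, −104 and −103, the last 2 overlapping, and a response element at −213. *Tnfaip3* (chr10:19015411-19015660, minus strand) holds κB matches at −125 and −12. *Tnip1* (chr11:54962941-54963190, minus strand) holds 3 overlapping κB matches at −58, −57 and −56.
Cxcl10: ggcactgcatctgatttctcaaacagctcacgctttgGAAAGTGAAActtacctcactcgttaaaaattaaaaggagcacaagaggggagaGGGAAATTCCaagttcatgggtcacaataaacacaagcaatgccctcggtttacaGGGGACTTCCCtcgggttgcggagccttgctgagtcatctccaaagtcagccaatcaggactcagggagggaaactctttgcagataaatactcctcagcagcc
Tnfaip3: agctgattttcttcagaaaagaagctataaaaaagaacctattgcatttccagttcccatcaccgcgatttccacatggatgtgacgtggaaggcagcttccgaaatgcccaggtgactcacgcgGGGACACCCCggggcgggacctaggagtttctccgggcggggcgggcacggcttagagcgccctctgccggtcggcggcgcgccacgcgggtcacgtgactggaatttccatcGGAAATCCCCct
Tnip1: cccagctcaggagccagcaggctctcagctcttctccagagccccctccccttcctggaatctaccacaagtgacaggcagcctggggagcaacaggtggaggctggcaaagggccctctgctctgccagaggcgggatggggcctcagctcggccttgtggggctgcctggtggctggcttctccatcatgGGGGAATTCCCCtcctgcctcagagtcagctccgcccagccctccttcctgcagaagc

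Acute phase and complement genes held the single largest difference of the comparison. Of 19 listed, all on the array, 15 were tested and 13 of them were higher, with a median of 4.41. The median was 4.07 with the genes that have only a limit set at that limit, and 3.86 over all 19. After normexp 11 were called, with a median of 2.86. *C4a*, *Serping1*, *Cd55* and *Orm1* were too dim to be tested, and *C2* (−0.01) and *C4b* (0.08) were tested and not called. Serum amyloid A3, *Saa3*, had 5.34 and 5.84 against −6.83, −6.62 and −6.92, a change from no signal above background to a bright one, at least 1307-fold (adjusted p = 1.53e-10). Complement component *C3*, the central protein of the cascade, had 7.03 on both K314/315R arrays against 0.10, −0.66 and −0.11, a log2 fold change of 7.26 (SE 0.24). The haemoglobin-binding *Hp* had 3.06 and 4.12 against −4.37, −4.63 and −4.39, with 8.05 (SE 0.34) and 2 of 3 pTV arrays above background. *Saa1* differed by 5.82, the pattern-recognition molecule *Ptx3* by 5.12, the C1 proteases *C1s* and *C1ra* by 4.53 and 2.85, ceruloplasmin (*Cp*) by 4.07, *Lcn2*, which binds bacterial iron carriers, by 3.86, and *Steap4* by 3.62. *Saa2* was at least 6.05-fold higher, and its probe and that of *Saa1* may read each other's near-identical RNA. Outside the list, the protease inhibitor *Slpi* (2.86 and 3.20 against −2.14, −2.45 and −2.04, log2 fold change 5.24) and the TNFα-induced *Tnfaip2* (5.25 and 5.12 against 0.36, 0.59 and 0.68, 4.64) were among the 10 largest folds. *Ch25h*, the enzyme that hydroxylates cholesterol, had 4.16 on both arrays against −5.32, −5.81 and −5.06, at least 484-fold.

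Interferon-stimulated antiviral genes were higher throughout. Of 36 listed genes 31 were tested, and all 31 were higher in K314/315R cells, with a median of 3.41, or 2.96 with the 8 genes that have only a limit set at that limit. After normexp 19 of the 31 were called, with a median of 1.76. *Isg15*, *Oas1a*, *Oas1f*, *Zbp1*, *Usp18*, *Ifit1* and *Ifit3*, among others, are in a list the study filtered for wild type p65 over pTV on these arrays. The list here was chosen with such results known, so 31 of 31 is no independent test. *Oas1g*, *Oas2*, *Oas3* and *Oasl1* were too dim to be tested, *Xaf1* had no probe by that name, and the median of the 35 on the array was 2.96. The ubiquitin-like *Isg15* had 2.42 and 1.58 against −2.71, −3.27 and −2.77, a log2 fold change of 4.92 (SE 0.42). The oligoadenylate synthetases *Oas1f* (2.14 and 0.91 against −5.07, −4.66 and −4.96) and *Oas1a* (0.81 and −0.46 against −6.83, −6.76 and −6.71), which start the degradation of viral RNA, were at least 77.6-fold and at least 30.5-fold higher. Replicate 1 was the higher of the K314/315R arrays in each of these. *Zbp1*, a sensor of unusual nucleic acids, was at least 49.7-fold higher, and *Oasl2*, *Usp18*, *Ifit1*, *Ifit3* and the poly(ADP-ribose) polymerase *Parp14* differed by 6.09, 5.59, 4.33, 4.19 and 4.90. For *Oasl2* only 2 of the pTV arrays were above background. The cytoplasmic RNA sensors *Ifih1* and *Ddx58* differed by 2.39 and, in the case of *Ddx58*, 2.83-fold. Of the factors that drive these genes, *Irf1* differed by 2.45, *Irf7* by 2.96, *Irf9* by 1.97 and *Stat2* by 1.70. The weakest members were *Ifitm3* (1.07, SE 0.33, adjusted p = 0.0311) and *Ifit2* (1.19, 1 of 2 probes). Of the 31, 1, *Irf1*, was raised by TNFα in wild type cells at 3 h.

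The interferon-inducible GTPases, which attack intracellular parasites, were likewise higher. The 13 listed names stood for 12 probes, since *Gbp3* and *Gbp4* shared 1, and 11 were tested and all of them higher, with a median of 4.33. *Gbp1* was too dim. After normexp 10 of the 11 were called, with a median of 2.83. *Gbp2* had 5.45 and 4.83 against 0.41, −0.65 and 0.07 (log2 fold change 5.19, SE 0.33), and the probe named *Gbp4* on the array, whose accession now belongs to *Gbp3*, had 3.75 and 3.80 against −1.01, −1.05 and −0.49 (4.63, SE 0.28). *Iigp1* (at least 22.2-fold) and *Tgtp* (at least 27.9-fold, 1 of 2 probes) were above background on no pTV array. The members *Irgm* (1.77) and *Gvin1* (2.29) differed least.

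MHC class I antigen processing genes were higher too, by smaller folds. Of 16 listed, 15 were tested and 14 were higher, with a median of 2.17, and 9 after normexp. *B2m*, the light chain of class I molecules, was at 5.78 and 5.17 against 4.86, 4.45 and 4.35 and was not called (0.92, SE 0.25). *Psme2* had no probe by that name. The subunits of the immunoproteasome, which cuts peptides for display, were all higher. *Psmb8* differed at least 20.6-fold (−0.08 and −0.72 against −5.48, −6.56 and −6.80), *Psmb9* by a log2 fold change of 3.51 and *Psmb10* by 2.20. For *Psmb9* only 2 of the pTV arrays were above background. The peptide pump had *Tap1* at least 4.28-fold higher and *Tap2* by a log2 fold change of 3.42. The heavy chains *H2-K1* and *H2-D1* differed by 2.22 and 1.65, and probes of this family may read near-identical relatives. *Cd74*, which belongs to class II presentation although it stood on the list, differed by 2.98.

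The promoters of *Isg15*, *Gbp2* and *Mmp13* are shown because they hold the response element of interferon signalling and, in these 250 bases, no κB match. Capitals mark the element on either strand. *Isg15* (chr4:156200819-156201068, minus strand) holds it at −78, −72 and −66, each overlapping the next. *Gbp2* (chr3:142620413-142620662, plus strand) holds it at −59 and *Mmp13* (chr9:7272264-7272513, plus strand) at −146, both on the opposite strand.
Isg15: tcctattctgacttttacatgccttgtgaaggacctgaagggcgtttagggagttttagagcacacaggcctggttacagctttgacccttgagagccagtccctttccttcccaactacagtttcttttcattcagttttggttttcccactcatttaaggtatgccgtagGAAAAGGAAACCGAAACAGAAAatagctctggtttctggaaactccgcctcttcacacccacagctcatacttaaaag
Gbp2: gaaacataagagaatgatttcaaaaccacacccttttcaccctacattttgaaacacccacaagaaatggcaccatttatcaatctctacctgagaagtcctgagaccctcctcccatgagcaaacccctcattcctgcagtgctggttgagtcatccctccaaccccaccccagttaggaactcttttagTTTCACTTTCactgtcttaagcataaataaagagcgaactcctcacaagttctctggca
Mmp13: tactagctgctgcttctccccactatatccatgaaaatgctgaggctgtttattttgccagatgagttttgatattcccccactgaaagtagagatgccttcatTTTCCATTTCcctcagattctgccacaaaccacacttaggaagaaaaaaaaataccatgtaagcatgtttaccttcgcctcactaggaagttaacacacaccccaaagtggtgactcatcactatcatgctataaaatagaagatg

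Over 32851 promoter windows of 27025 genes in that annotation, which run from 250 bases before to 50 after the start, 8.46% held the κB consensus and 3.44% the response element. Of 8681 tested genes that had a window, 12.4% held κB and 3.78% the response element. Among 453 genes higher in K314/315R cells the shares were 19.4% and 12.1%, and among 403 lower genes 12.9% and 4.22%. κB stood in 6 of 11 windows of the NF-κB regulators and 6 of 12 of the chemokines and cytokines. It stood in 2 of 10 of the acute phase genes, none of 10 of the metalloproteinases and 3 of 15 of the adhesion, survival and death genes. The collagens and matrix genes, with few calls, had it in 3 of 16. The response element stood in 13 of 23 of the antiviral genes, 7 of 8 of the GTPases and 3 of 9 of the antigen processing genes. These are counts of letters near the start and do not show that a factor binds there, and windows without a match may hold other forms or lie far from a site.

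Matrix-degrading enzymes were split. Of 18 listed metalloproteinases and inhibitors, 15 were tested, 7 were higher and 8 not called, with a median of 0.71, and 3 after normexp. *Mmp8*, *Mmp12* and *Timp4* were too dim, and over all 18 the median was 0.67. Besides *Mmp10* and *Mmp13*, the stromelysin *Mmp3* had 3.31 and 3.35 against −3.94, −4.77 and −3.26, with 2 of 3 pTV arrays above background (log2 fold change 7.32, SE 0.35). The gelatinase *Mmp9* differed by 1.92, *Mmp19* by 1.59, and the aggrecan-cutting *Adamts4* and *Adamts5* by 1.12 and 1.07, of the last 1 of 2 probes. The gelatinase *Mmp2* (0.53), the membrane-bound *Mmp14* (0.15) and *Mmp11* (0.57) were not called, nor were the inhibitors *Timp1* (0.71), *Timp2* (−0.48) and *Timp3* (−0.22).

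Adhesion, survival and death genes were also split, with 9 of 18 tested members higher, none lower and a median of 0.99. *Bcl2a1a* had no probe by that name and *Casp1* was too dim. The leukocyte adhesion molecule *Icam1* had 2.11 and 1.57 against −5.61, −5.85 and −5.34, at least 96.8-fold more, and *Vcam1* had 5.98 and 6.29 against 3.69, 3.92 and 4.27 (log2 fold change 2.17). The death receptor *Fas* had 5.61 and 5.39 against 0.64, −0.42 and 0.23 (5.35, SE 0.28). Of the genes that protect cells from TNFα, *Sod2*, the mitochondrial superoxide dismutase, had 7.23 on the only K314/315R array with a usable spot against 4.84, 4.95 and 4.90, a log2 fold change of 2.33 from that single value. *Birc2* and *Birc3*, inhibitors of cell death, differed by 1.48 and, on 1 of 2 probes, 1.42. The inflammatory caspase *Casp4* differed by 2.90, the TNFα receptor *Tnfrsf1b* by 1.71 on 1 of 2 probes and the kinase of necroptosis *Ripk3* 2.14-fold. *Traf1* (0.52), *Gadd45b* (0.88), *Cflar* (0.07), *Bcl2l1* (−0.01) and *Bcl2* (−0.93) were not called.

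Further lists held few calls. Over all tested probes 4.18% were higher and 4.68% lower, so 1 lower gene in 25 is no more than that share. Of 25 cell cycle genes, all tested, none was higher and 1 lower, cyclin D1 (*Ccnd1*), with 1.99 and 1.62 against 3.07, 3.18 and 3.02 (log2 fold change −1.29, SE 0.17), which no longer passed after normexp (−1.19). The median was −0.50, and *Mcm2* (−0.85), *Rrm2* (−0.98) and *Ccne1* (−0.94, with 1 of 2 probes lower) stayed inside the fold of 2 on the probe used. These values moved with single arrays, and the median was −0.81 with 6 lower without K314/315R replicate 1 and −0.15 with 1 lower without replicate 2, and 2 were lower without pTV replicate 1 or 3. Of 11 tested contractile genes out of 14, none was called, with a median of 0.13 (0.35, with 1 call, without K314/315R replicate 2) and *Acta2* at 0.80. Of 22 tested collagens and matrix genes out of 24, the collagens *Col1a1* (0.11) and *Col3a1* (0.47) were not called. The 3 that were higher were *Efemp1* (3.71, 2 pTV arrays above background), the collagen-linking enzyme *Lox* (1.38) and *Dcn* (1.28, 1 of 2 probes). After normexp 1 of these 3 was called, with *Efemp1* at 1.75 and *Dcn* at 1.43 no longer passing, and the median of 0.26 was 0.07 without K314/315R replicate 2. *Myh11*, *Des*, *Myocd*, *Eln* and *Lum* were too dim to be tested.

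**Figure D3:**
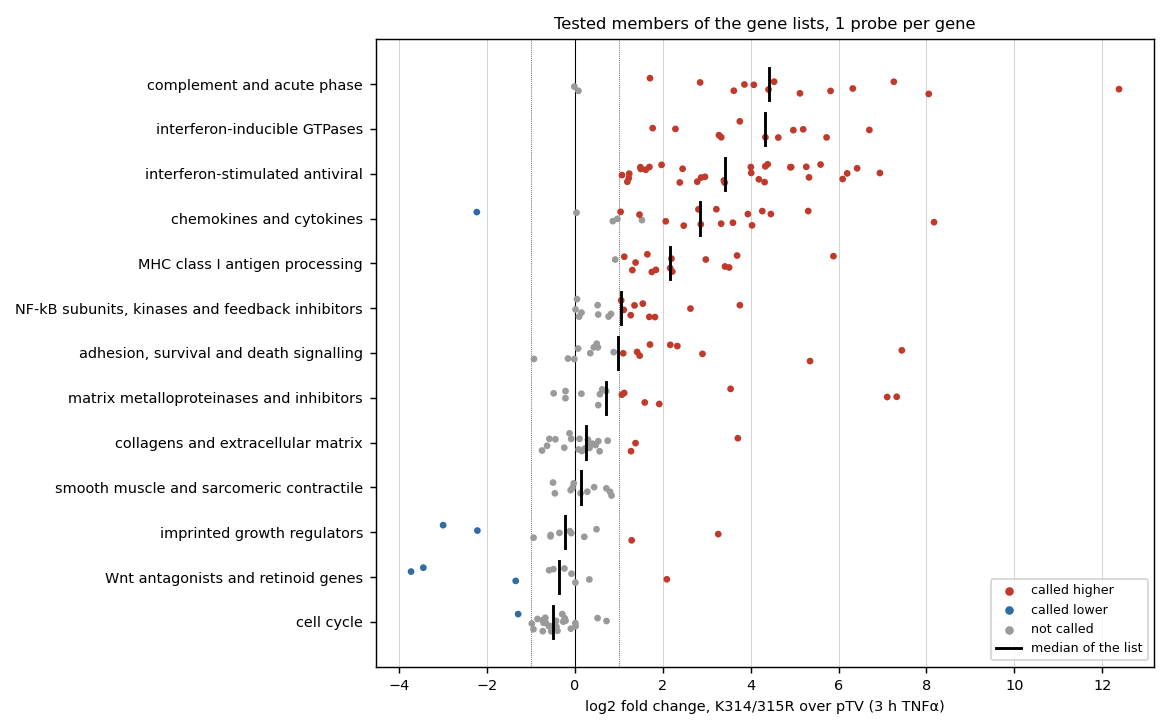
Log2 fold change of K314/315R over pTV for the tested members of 13 gene lists, 1 probe per gene (points, red: called higher, blue: called lower, grey: not called, bars: median of the list, dotted lines: the fold of 2). All 31 antiviral and 11 GTPase probes lie to the right of the limit. The 25 cell cycle genes centre on −0.50 with 1 call, against 4.68% lower over all tested probes. They centre on −0.81 and −0.15 when a K314/315R array is left out.

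Among genes that K314/315R cells had less of, the 10 lowest with all 5 arrays above background differed by log2 fold changes of −3.73 to −2.29. *Dkk2*, a secreted regulator of Wnt signalling, had −2.82 and −3.31 against 0.68, 0.81 and 0.50, a log2 fold change of −3.73 (SE 0.29, adjusted p = 4.38e-06). *Esm1*, a secreted proteoglycan, had −2.58 and −2.38 against 1.05, 1.34 and 1.33 (−3.72). *Aldh1a3*, which makes retinoic acid, had −2.45 and −1.79 against 1.66, 0.49 and 1.83 (−3.45, SE 0.53). In each the 3 pTV arrays were all above both K314/315R arrays by over 2 units. *Hbegf*, a ligand of the EGF receptor, was bright in both groups, with 2.06 and 2.22 against 4.44, 4.65 and 4.87 (−2.51, SE 0.28). *Spry4*, an inhibitor of growth factor signalling, had −3.94 and −4.21 against −1.561, −1.502 and −1.504 (−2.55), and *Dock8*, an activator of Cdc42, −3.57 and −3.29 against −1.48, −0.93 and −0.86 (−2.34).

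The remaining 4 of the 10 lowest varied in their spread. *Smc2*, a subunit of the condensin that compacts chromosomes, had −2.09 and −2.32 against 0.59, 0.82 and 0.42 (log2 fold change −2.82, SE 0.39), *Sgol2*, which protects centromeric cohesion, −2.42 and −2.87 against −0.09, −0.25 and −0.68 (−2.31), and the mitotic kinesin *Mphosph1* −3.95 and −4.28 against −1.85, −1.49 and −2.13 (−2.29). The membrane protein *Cdcp1* had −4.34 and −2.64 against −0.14, −0.85 and −1.20, and its replicates lay far apart (−2.76, SE 0.87, adjusted p = 0.0358). Its call was lost without K314/315R replicate 1 (−1.91, adjusted p = 0.244), without pTV replicate 1 (−2.46, adjusted p = 0.0882) and without pTV replicate 2 (−2.82, adjusted p = 0.0734). A further 3 genes were above background on all pTV arrays and on neither K314/315R array, the complement inhibitor *Cfi* (pTV at least 4.60-fold higher), *Ccdc85a* (at least 4.45-fold) and *1110001M24Rik* (at least 4.96-fold). After normexp *Dkk2*, *Esm1*, *Aldh1a3*, *Smc2*, *Hbegf* and *Sgol2* kept their calls, and *Spry4* (−1.53), *Dock8* (−1.53), *Mphosph1* (−1.32), *Cdcp1* (−2.01), *Cfi* (−1.31), *Ccdc85a* (−1.14) and *1110001M24Rik* (−1.09) did not.

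Of 18 listed Wnt antagonists and retinoid genes 10 were tested, with 3 lower, *Dkk2*, *Dkk3* (−1.35) and *Aldh1a3*, and 1 higher, *Dact2* (2.09), and a median of −0.36 that ran from −0.56 (without K314/315R replicate 2) to −0.22 (without replicate 1) when single arrays were left out. The 8 untested were *Dkk1*, *Sfrp2*, *Sfrp4*, *Frzb*, *Wif1*, *Dact1*, *Aldh1a2* and *Rarb*. Of 13 imprinted growth regulators 12 were tested (not *Peg3*), 2 were higher and 2 lower. The deiodinase *Dio3* had −0.86 and −1.15 against −3.57, −4.89 and −4.34 (3.26, SE 0.35, 2 of 3 pTV arrays above background), and the cell cycle inhibitor *Cdkn1c* 1.23 and 1.49 against 0.50, −0.24 and −0.05 (1.29). *Peg10* and *Phlda2* were above background on all pTV arrays and on neither K314/315R array, with pTV at least 3.09-fold and at least 1.77-fold higher. None of the 4 was called after normexp, with 1.58, 1.12, −1.09 and −0.81.

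Wild type p65 was set beside the mutant. Wild type over pTV called 795 probes higher (3.59%) and 323 lower (1.46%). Both comparisons used the same pTV arrays, so the values are given side by side and no overlap is counted. The 926 and 1038 probes were picked on K314/315R, which by itself makes its median larger than that of wild type p65. Members of the antiviral, GTPase and antigen processing lists are in a list the study filtered for wild type p65 over pTV. Their wild type medians are therefore no independent result. The medians over the 926 higher probes were 1.63 for K314/315R and 1.55 for wild type p65, and over the 1038 lower probes −1.31 and −0.55. By list, the medians were 4.41 and 3.95 for acute phase and complement genes, 2.84 and 2.58 for chemokines and cytokines, 1.05 and 0.96 for NF-κB regulators, 0.71 and 0.52 for metalloproteinases, 3.41 and 4.12 for antiviral genes, 4.33 and 4.68 for the GTPases and 2.17 and 2.39 for antigen processing.

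**Figure D4:**
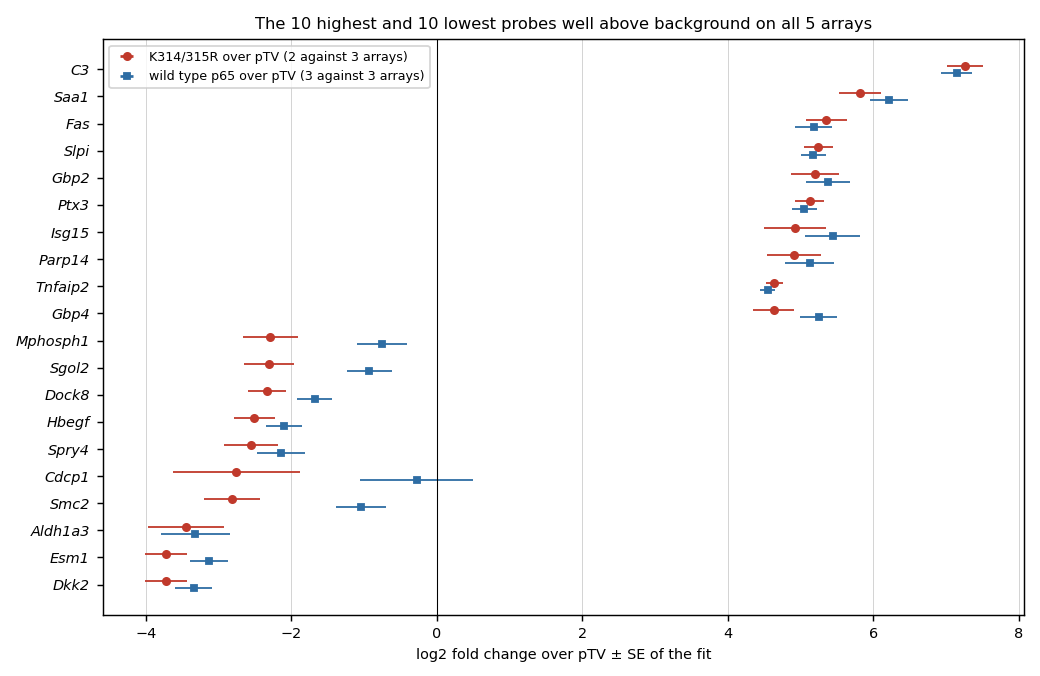
Log2 fold change over pTV with its standard error for the 10 highest and the 10 lowest called genes with all 5 arrays above background, for K314/315R (red circles, 2 against 3 arrays) and wild type p65 (blue squares, 3 against 3 arrays), which share the pTV arrays. The 10 high genes have values between 4.55 and 7.26 in both, while the 10 low genes, which were picked on K314/315R, all lie further left for it, and of these *Smc2* passed the direct test against wild type p65 (−1.77).

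The direct test of K314/315R against wild type p65 at 3 h, with the study's limit of 1.8-fold, called 37 probes higher (0.167%) and 228 lower (1.03%). Of the 926 probes higher than pTV, 19 (2.05%) were also higher than wild type p65 and 8 lower, and of the 1038 lower than pTV, 174 (16.8%) were also lower than wild type p65. Both tests used the same 2 K314/315R arrays on their own slide. Without K314/315R replicate 2 the calls against wild type p65 were 3 higher and 15 lower, and without replicate 1 they were 25 and 102. None of the tested antiviral, GTPase, antigen processing, chemokine, acute phase, metalloproteinase or NF-κB regulator genes passed limma's test against wild type p65 on the probe used, and at an unadjusted p under 0.05 *Mmp10* and *Mmp13* (higher) and *Phf11* (lower) did. For *Mmp13* the log2 fold change over wild type p65 was 1.22 (SE 0.33, adjusted p = 0.0819), with 0.29 and 0.72 against −0.45, −0.78 and −0.92, and when single arrays were left out it ran from 1.01 to 1.44 with an adjusted p of 0.0362 (without pTV replicate 2, which enters only the shared spread) to 0.310. For *Mmp10* it was 0.91 (SE 0.30, adjusted p = 0.145). The 95% intervals of the difference from wild type p65 ran from 0.49 to 1.95 for *Mmp13*, from 0.24 to 1.57 for *Mmp10*, from −0.95 to 0.15 for *Cfb*, from −1.01 to 1.18 for *Mpa2l* and from −0.35 to 0.61 for *Cxcl10*. The median over list members was −0.33 for antiviral genes and −0.34 for the GTPases, with 0.12 for chemokines and 0.22 for metalloproteinases, against 0.02 over all tested probes.

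*Ripk3* was the adhesion, survival and death gene that passed the test against wild type p65. It had 0.23 and −0.10 with K314/315R, −0.77, −1.03 and −1.30 with pTV and −0.91, −0.95 and −1.14 with wild type p65, whose levels overlapped those of pTV (K314/315R over wild type p65 1.07, SE 0.17, adjusted p = 0.0172). *Cdkn1c* had the same order, with 0.11, −0.57 and −0.47 in wild type p65 cells (1.67, adjusted p = 0.0172, but 0.0509 without K314/315R replicate 1 and 0.112 without replicate 2). *Igf2*, which was not called against pTV (0.49), was higher than in wild type p65 cells by 0.91 (adjusted p = 0.0331). The actin gene *Acta1*, at 1.69 and 1.55 with K314/315R, 1.28, 1.41 and 1.33 with pTV and 2.57, 2.60 and 2.40 with wild type p65, was lower than in wild type p65 cells by −0.90 (SE 0.09, adjusted p = 0.00396).

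TNFα responsiveness was read in the wild type p65 cells, whose 3 h and 0 h arrays enter K314/315R over pTV only through the shared spread and the choice of probes tested. With the 5 arrays alone that comparison called 907 probes higher and 1004 lower. There 249 probes were raised (1.12%) and 94 lowered (0.424%). Of the 249 raised probes 153 (61.4%) were higher in K314/315R than in pTV cells and 11 (4.42%) lower, with a media log2 fold change of 1.54, and of the 94 lowered probes 9 were higher and 17 (18.1%) lower. The 153 made up 16.5% of the 926 higher probes, so most probes that were higher with the mutant were not called raised at 3 h in wild type p65 cells. *Icam1* (2.44), *Ccl20* (2.20), *Cxcl10* (1.96), *Tnfaip3* (1.94), *Tnfaip2* (1.96), *Ptx3* (1.75) and *Mmp13* (1.42) were raised by TNFα, while *C3* (0.10), *Hp* (0.02), *C1s* (−0.19), *Oas1f* (−0.10), *Oas1a* (−0.12) and *Isg15* (0.42) were not called. By list, 9 of the 20 tested chemokines and cytokines, 5 of the 17 NF-κB regulators, 4 of the 15 acute phase genes, 4 of the 11 GTPases and none of the 15 antigen processing genes were raised. *Spry4* was raised by TNFα in wild type p65 cells (2.05) and was lower with K314/315R than with pTV.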

How the data were processed

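RNA of each culture was hybridised in 1 colour to an Agilent mouse array. Per the file headers and the submitters' processing notes, the deposited intensity values were made by the authors with Agilent Feature Extraction 9.1, whose processed signal is background-subtracted. The authors' deposited value table served as an alternative. It held linear intensity values, not centred by gene, equal to the processed signal times 1 factor per array (0.837 to 1.20, within 1% for 99.7% to 99.8% of values). Here the processed signal of spots that were no controls and no outliers was averaged per probe and expressed as log2 relative to each array's 75th percentile over probes. Saturated spots were kept. Probes that some group had clearly above background (the scanner software's flag) on all its arrays were tested with limma 3.58.1 (R 4.3.3), in 1 fit over 14 arrays with a moderated test and Benjamini-Hochberg adjustment over all tested probes. The steps were tested on simulated data. Calls needed an adjusted p under 0.05 and a fold of over 2 against pTV or over 1.8 otherwise. The folds against pTV and wild type p65 are the study's limits. The study asked for a p under 0.05 from other software and named no adjustment, so the calls here are not made by its rule. It gave no limit for 3 h over 0 h. Labels call the arrays of a group biological replicates with RNA isolated on different days, and their number limits the precision.

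Named were the genes the study singled out, the 10 highest and the 10 lowest called genes with all 5 arrays above background and no overlap, the 5 highest and 3 lowest limits, and up to 4 called members of each list by size of fold, besides members needed to account for a list. The probe of a listed gene was its brightest tested probe over 14 arrays. The members and lists were chosen with earlier results of these data known. Of the tested probes, 15282 matched RefSeq by accession, and other names are the array's own. Promoters came from RefSeq (GRCm38.p6). The alternatives were other scalings, background corrections, filters, blocks and leaving out single arrays. The p65 protein sequence was not used here. Some listed genes are counted but not reported here by name.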

Additional observations from a re-analysis of the deposited data

Results flagged for a closer look

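Among the study's genes, the genes with the highest and lowest folds or limits and the list members with the largest folds, 3 were flagged. For *Cdkn1c*, *Smc2* and *Peg10* the effect of K314/315R over pTV differed from that of wild type p65 over pTV. The test was the direct one between the mutant and wild type p65 (limma). Other genes in the text, among them *Ripk3*, *Igf2*, *Acta1* and *Vnn1*, also passed that test. *Cdkn1c* was higher with K314/315R than with wild type p65 by a log2 fold change of 1.67 (adjusted p = 0.0172), with values over pTV of 1.29 and −0.38. *Smc2* was lower by −1.77 (adjusted p = 0.0386), with −2.82 and −1.04 over pTV. *Peg10* was lower by a fitted −1.88 (adjusted p = 0.0247), with fitted values of −2.998 and −1.12 over pTV. Neither K314/315R array was above background for *Peg10*, so these are not exact differences, and pTV was at least 3.09-fold higher than K314/315R. When single arrays were left out, the adjusted p ran from 0.0163 to 0.112 for *Cdkn1c*, from 0.0484 to 0.198 for *Smc2* and from 0.0296 to 0.120 for *Peg10*, and all 3 missed the threshold with either K314/315R array left out, *Smc2* also without pTV replicate 2 (0.0531) and without pTV replicate 3 (0.0520). The groups hold 2 or 3 arrays, so no search for single outlying arrays was made.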

How the results depend on the processing

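For K314/315R over pTV (926 higher, 1038 lower) the counts stayed within 1.5 times under 14 of the 16 alternatives for the higher and 15 for the lower probes. They were 333 and 112 after normexp, with 7 of the called probes turned in sign, and 598 higher when all 5 arrays had to be above background, which tests fewer probes. Leaving out single arrays gave 860 to 961 higher and 892 to 1143 lower, and a random slide block kept 893 and 935 of the same probes. With quantile normalization 898 and 662 of the same probes kept their calls. The test against wild type p65 moved far more. Its 37 higher probes were 0 after normexp (22 at an unadjusted p under 0.05, limma), 12 without the filter, 24 with all 5 arrays above background, 15 with a random slide block, 73 with a replicate block and 85 without p adjustment, and 3 to 39 when single arrays were left out. Its 228 lower probes were 66 after quantile normalization, 0 after normexp (151 at an unadjusted p), 48 without the filter, 119 with all 5 arrays above background, 69 with a random slide block, 519 with a replicate block and 678 without p adjustment, and 15 to 232 when single arrays were left out. The cause was not tested. No call of a named gene turned its direction, though values against wild type p65 that were not called changed sign when single arrays were left out, as for *Oas1a* (−1.06 to 0.21). Of the values of named genes over pTV under the alternatives, 27 lost and 2 gained a call and 1061 kept their side, and against wild type p65 18 lost, 17 gained and 915 kept it.

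K314/315R and pTV share 2 replicate numbers. A fit with the replicate number as a block gave 963 higher and 1134 lower, and arrays of the same number deviated from their group means with correlations of 0.41 and 0.10. Pairs of unlike numbers ran from −0.42 to 0.42. The deviations of the 2 K314/315R arrays mirror each other, so these values are not independent. K314/315R shares no slide with pTV, so with 2 pairs equal numbers were not taken as pairs. In the other groups arrays of equal number shared a slide. The main tests of wild type p65 over pTV and of TNFα did not use this. With the replicate block, wild type p65 over pTV had 807 higher and 333 lower, and TNFα 275 raised and 127 lowered. Limits are the 2 K314/315R arrays on a slide of their own, no 0 h arrays of either group analysed here, and probes near background, whose folds are only limits.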

Other observations

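Among marker genes checked for the identity of the cells, the growth factor receptors *Pdgfra* and *Pdgfrb* were higher with K314/315R than with pTV by log2 fold changes of 2.26 and 1.92. The surface glycoprotein *Thy1* was lower by −1.06, although after normexp 2 fibroblast markers were called higher and none lower. The keratin *Krt18* was above background on neither K314/315R array and at least 4.07-fold higher with pTV. The other tested epithelial markers, *Krt5* (−0.89), *Krt8* (0.13) and *Krt14* (1.01), were not called, and after normexp no epithelial marker was. Of the 2 tested adipocyte markers the lipid carrier *Fabp4* was higher by 1.84, and the fat cell regulator *Pparg* had −0.67 and was not called. *Vim*, the fibroblast intermediate filament, had −0.24 and was not called. Of the 19 probes that were higher with K314/315R than with both pTV and wild type p65, none was raised by TNFα in wild type p65 cells. Only 1.12% of all tested probes were raised, so this count does not set the 19 apart. The 19 included, chosen after their values were seen, the pantetheinase *Vnn1*, 1.57 higher than with wild type p65, the prostaglandin F receptor *Ptgfr* (1.01) and the secreted *Wisp2* (0.92).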
